A study of Rattus with 12 samples.

Results

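Transcripts of 6 metabotropic glutamate receptor genes were followed across 12 rat brain cell cultures that differed in their exposure to fentanyl, a synthetic opioid that activates the mu-opioid receptor. The members are the rows of the count table with the symbols Grm2, Grm3, Grm4, Grm5, Grm7 and Grm8, which make 6 of the 17337 genes listed, and other genes of the receptor family are not described here. All 6 were among the 12271 genes that passed the filter on low counts. The cultures, labelled Sprague Dawley, were mixed from purchased primary cortical neurons, astrocytes and oligodendrocyte precursor cells (OPCs), and the exposure lasted 4 days. There were 4 untreated cultures (A, G, M and P), which received medium alone, 4 cultures at 0.01 μM fentanyl (low dose; B, H, N and Q) and 4 at 10 μM fentanyl (high dose; C, I, O and R). The labels do not say whether cultures of one condition came from separate cell preparations, so p-values measure the spread between these cultures, part of which may be technical.

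Metabotropic glutamate receptors are G-protein coupled receptors that sense glutamate and tune synapses on a slower time scale than the ionotropic receptors. Group I, here Grm5, couples to Gq and phospholipase C and sits mostly on the postsynaptic side, while group II (Grm2 and Grm3) and group III (Grm4, Grm7 and Grm8) couple to Gi/o, lower cyclic AMP and restrain transmitter release from presynaptic terminals. In cortex, Grm3 and Grm5 are also made by glial cells, whereas Grm2, Grm4 and Grm7 are known mainly as neuronal receptors. The mu-opioid receptor shares the Gi/o pathway with groups II and III.

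Depth lay between 12059872 and 24813893 counts per culture. Values are given in CPM, the usual library-size scale of counts, with TMM scaling, and marker lists are summarised by a score, the mean log2(CPM + 1) of their genes. Untreated culture G stood apart, with a score of 4.19 over 12 neuronal markers against 7.46 to 8.16 in the other 11 cultures. The markers of neurons, astrocytes, OPCs and oligodendrocytes found in the table were each above 0 in at least 1 culture. Microglial markers (9 genes) were present although the labels name no microglia, with scores of 1.53 to 5.61. Cultures whose letters follow each other form 4 letter sets with 1 culture per condition each. Deviations from the condition means correlated across genes at a median of 0.71 within sets and -0.22 between sets, with exceptions in both G and M. Since deviations sum to 0 within a condition, positive values within sets bring negative values between sets, so the second median is no separate result. G correlated at -0.19 with H and -0.05 with I of its own set but at 0.40 with N and 0.33 with O, and M at 0.10 with N and 0.30 with O of its own set but at 0.45 with H and 0.50 with I. The sets are called here by their untreated member (set A is A with B and C, set G is G with H and I, set M is M with N and O, set P is P with Q and R). The labels do not name them as a pairing, so within-set differences are printed beside the pooled values. All values by set, and the fits with the sets as a block, keep M with N and O.

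Each receptor had at least 1 count in all 12 cultures, and none passed the test between conditions. A gene was called where its adjusted p lay below 0.05 and its log2 fold change beyond 0.5 either way (edgeR), which held for 0% of all genes tested in each of the 3 comparisons. Of the 6 receptors, 0 were called in any comparison, and 0 had an unadjusted p under 0.05 in the edgeR fit with 1 factor of unwanted variation, where 0.742% of all genes did for low dose vs. untreated, 1.19% for high dose vs. untreated and 1.17% for high dose vs. low dose. These shares lie below the share of 0.05 that would pass if no gene differed, so that fit was strict for all genes. Its 0 of 6 does not show that the receptors were unchanged. DESeq2 also called 0 of the 6 receptors, and gave an unadjusted p of 0.0443 (adjusted p = 1.0) for Grm3 between high and low dose. That difference had the smallest p of the 18 receptor tests in the edgeR fit too, at a mean of 10.3 CPM at the high dose against 6.78 CPM at the low dose.

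The signs of the receptor differences were mixed. In low dose vs. untreated, 3 of the 6 receptors had a log2 fold change above 0, as had 53.4% of all genes, with a receptor median of 0.10 against 0.01 for all genes. High dose vs. untreated had 5 of 6 above 0 (50.8% of all genes, medians 0.35 and 0.0031), and the contrast of the doses had 4 of 6 (47.6%, medians 0.14 and -0.0087). In the fit with a replicate block and without G, the receptor medians were -0.21, -0.05 and 0.17, so the first 2, which share the untreated cultures, changed sign. That fit called 0 of 6 receptors in each comparison, where 0%, 0.122% and 0.113% of all genes were called. Against untreated, no receptor was higher in all 4 letter sets at the low dose (4.06% of all genes) or at the high dose (5.22%), and none was lower in all 4 at the high dose (5.22%). No receptor was higher in sets A, M and P together at the low dose (13.9%) or the high dose (15.1%), and 2 (Grm7 and Grm8, 13.7% of all genes) and 1 (Grm7, 14.5%) were lower there.

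**Figure D1:**
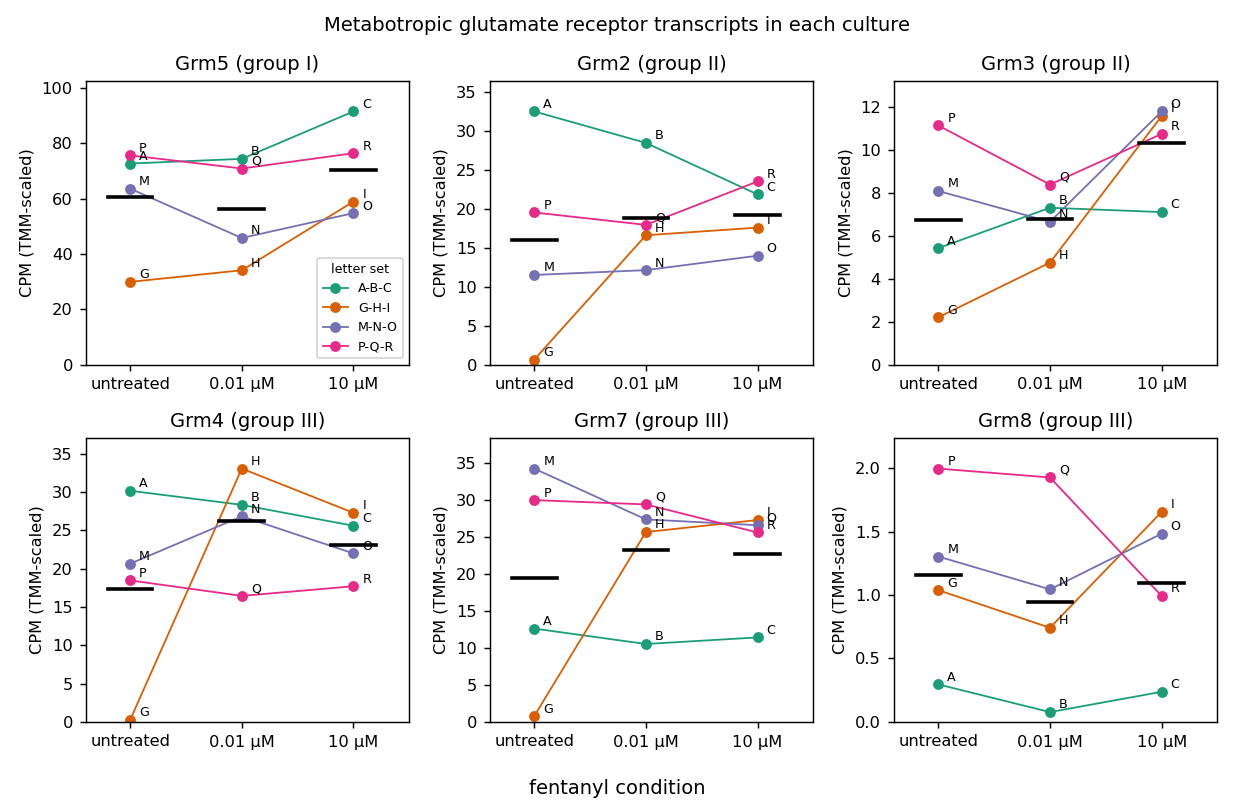
Each panel plots 1 receptor, with CPM (TMM-scaled, linear axis from 0, a different range in each panel) against fentanyl condition for the 12 cultures. Lines join cultures of a letter set and black bars are means of 4 cultures. Culture G lies at or near 0 for Grm2, Grm4 and Grm7, and the line of A, B and C runs below the other sets for Grm8 and, apart from G, for Grm7.

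Grm5, the group I receptor that mobilises calcium through Gq, was at 72.6 CPM in untreated culture A, 29.9 in G, 63.6 in M and 75.6 in P. At the low dose it was at 74.3 CPM in B, 34.1 in H, 45.7 in N and 70.8 in Q, and at the high dose at 91.5 in C, 58.9 in I, 54.7 in O and 76.4 in R. The conditions overlapped throughout, with means of 60.4 ± 21.0 CPM (SD, n = 4) without fentanyl, 56.3 ± 19.5 at the low dose and 70.4 ± 16.9 at the high dose. G and H had the lowest levels, and neighbouring condition means lay within 1 SD of each other. All 4 letter sets had more Grm5 with the high dose, and exceeded their low dose cultures by 0.30 (set A), 0.77 (set G), 0.25 (set M) and 0.11 (set P) as a difference in log2(CPM + 1). Of all genes tested, 11.7% were higher in all 4 sets in this comparison. The log2 fold change was 0.34 (SE 0.21, 95% interval -0.12 to 0.80) for high dose vs. low dose, with an unadjusted p of 0.131 and an adjusted p of 1.0 (edgeR). The pooled difference gave an exact two-sided permutation p of 0.314, where 0.0286 is the smallest that 4 against 4 cultures can give. With the letter sets as a replicate block and without culture G, the log2 fold change was 0.36 (SE 0.12, unadjusted p = 0.0140, adjusted p = 0.247, edgeR), and 13.6% of all genes had an unadjusted p under 0.05 in that fit. Against untreated cultures the log2 fold change of Grm5 was -0.26 (SE 0.22) at the low dose and 0.08 (SE 0.22) at the high dose. Over all 18 pooled receptor differences the exact p ranged from 0.0857 to 0.914.

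Grm3, a group II receptor of neurons and astrocytes, was at 5.43 CPM in A, 2.21 in G, 8.09 in M and 11.1 in P without fentanyl. The low dose cultures had 7.31 CPM in B, 4.76 in H, 6.66 in N and 8.39 in Q, and the high dose cultures 7.11 in C, 11.6 in I, 11.8 in O and 10.8 in R. Thus 3 of the 4 high dose cultures lay above every low dose culture, and C lay among them. The means were 6.72 ± 3.81 CPM (SD, n = 4) without fentanyl, 6.78 ± 1.53 at the low dose and 10.3 ± 2.18 at the high dose, and the untreated and low dose means differed by less than their spread. Counts behind these values were 34 to 260 per culture.

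For high dose vs. low dose the log2 fold change of Grm3 was 0.64 (SE 0.30, 95% interval -0.02 to 1.30), with an unadjusted p of 0.0576 and an adjusted p of 1.0 (edgeR). Within the letter sets, high dose minus low dose for Grm3 was 1.13 (set G), 0.74 (set M), 0.32 (set P) and -0.036 (set A) in log2(CPM + 1). The pooled difference was 0.54 (exact two-sided permutation p = 0.0857), and without high dose culture C it was 0.69 with an exact permutation p of 0.0286, the smallest that 3 against 4 cultures can give. C is the only high dose culture that lay among the low dose cultures. Leaving it out separates the doses, so this smallest p follows from that choice and is not support. Leaving out any other culture of these doses gave differences of 0.40 to 0.64 with exact permutation p of 0.0857 to 0.171. Over the 24 alternative fits the log2 fold change stayed between 0.49 and 0.80 and the adjusted p between 0.113 and 1.0. Among them it was 0.50 (unadjusted p = 0.143, edgeR) without H, 0.49 (unadjusted p = 0.157) without O and 0.62 (unadjusted p = 0.0166) without G. With the letter sets as a replicate block and without culture G, it was 0.60 (SE 0.21, unadjusted p = 0.0158, adjusted p = 0.259, edgeR). Grm3 and Grm5 were the 2 of 6 receptors with an unadjusted p under 0.05 in that comparison and fit, where 13.6% of all genes had one. In high dose vs. untreated the log2 fold change of Grm3 was 0.55 (SE 0.30, adjusted p = 1.0, edgeR). Low dose vs. untreated gave -0.09 (SE 0.31). The within-set differences of Grm3 between high dose and untreated were 1.97 (set G), 0.49 (set M), 0.33 (set A) and -0.047 (set P).

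The marker scores moved between the same cultures. High dose minus low dose, the neuron score differed by 0.023 (set A), 0.14 (set G), 0.26 (set M) and 0.22 (set P), and the astrocyte score (9 markers tested) by 0.043, -0.39, -0.49 and -0.36 in the same order. The OPC score (7 markers) was also higher with the high dose in all 4 sets, by 0.25, 0.17, 0.35 and 0.099, as Grm5 was. The fibroblast and mural cell score (5 markers) was lower in all 4, with differences of -0.11, -0.53, -2.15 and -0.086, and oligodendrocyte, microglial and endothelial scores had mixed signs. Taken relative to the neuron score of its own culture, Grm3 differed by -0.059 (set A), 0.99 (set G), 0.49 (set M) and 0.11 (set P). Relative to the astrocyte score the differences of Grm3 were -0.078, 1.52, 1.23 and 0.69. Grm5 relative to the neuron score differed by 0.27, 0.63, -0.0018 and -0.11, and relative to the astrocyte score by 0.25, 1.17, 0.75 and 0.47, so that it was higher in every set on the second scale and not on the first. In bulk RNA, fewer cells of a type and less RNA per cell cannot be told apart, and the part of cell composition in these differences was not tested.

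Grm2, the other group II receptor and a presynaptic autoreceptor, was at 32.5 CPM in A, 0.65 in G, 11.5 in M and 19.5 in P without fentanyl. At the low dose it was at 28.5 CPM in B, 16.6 in H, 12.1 in N and 17.95 in Q, and at the high dose at 21.9 in C, 17.6 in I, 14.0 in O and 23.5 in R. The level fell into the same order of letter sets at both doses only in part, since C lay below R whereas B lay above Q. Condition means were 16.1 ± 13.4 CPM (SD, n = 4) without fentanyl, 18.8 ± 6.91 at the low dose and 19.2 ± 4.30 at the high dose, each within 1 SD of the next. Without G the untreated mean was 21.2 ± 10.6 CPM (n = 3). The log2 fold change was 0.29 (SE 0.23) for low dose vs. untreated and 0.37 (SE 0.23) for high dose vs. untreated, 2 comparisons that share the untreated cultures. Without G and with the letter sets as a block these values were -0.10 (SE 0.16) and -0.01 (SE 0.16). For high dose vs. low dose the log2 fold change was 0.09 (SE 0.23, 95% interval -0.42 to 0.59), and the adjusted p was 1.0 in each comparison (edgeR).

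Grm4, a group III receptor of presynaptic terminals, was at 30.2 CPM in A, 0.26 in G, 20.6 in M and 18.5 in P. Low dose cultures had 28.3 CPM in B, 33.0 in H, 26.8 in N and 16.4 in Q, and high dose cultures 25.6 in C, 27.3 in I, 22.0 in O and 17.7 in R. The lowest level outside G was in set P at every condition. The means were 17.4 ± 12.5 CPM (SD, n = 4) without fentanyl, 26.2 ± 7.001 at the low dose and 23.1 ± 4.24 at the high dose, and 23.1 ± 6.22 CPM in untreated cultures without G (n = 3). The log2 fold change of 0.84 (SE 0.50) for low dose vs. untreated was the largest of the 18 receptor fold changes in size, with an adjusted p of 1.0 (edgeR), and was 0.07 (SE 0.11) with the block and without G. High dose vs. untreated gave 0.63 (SE 0.50) in 12 cultures and -0.09 (SE 0.11) with the block and without G, and high dose vs. low dose gave -0.21 (SE 0.49).

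Grm7, the group III receptor that sits in the active zone of presynaptic terminals, was at 12.6 CPM in A, 0.78 in G, 34.3 in M and 30.0 in P. It was at 10.5 CPM in B, 25.7 in H, 27.4 in N and 29.4 in Q at the low dose, and at 11.4 in C, 27.3 in I, 26.6 in O and 25.6 in R at the high dose. A, B and C were the lowest cultures of their conditions apart from G, and the remaining 8 cultures lay between 25.6 and 34.3 CPM. Means were 19.4 ± 15.6 CPM (SD, n = 4) without fentanyl, 23.3 ± 8.62 at the low dose and 22.8 ± 7.58 at the high dose, all within 1 SD of each other. The log2 fold change was 0.37 (SE 0.62) for low dose vs. untreated and 0.33 (SE 0.62) for high dose vs. untreated in 12 cultures. Leaving out G alone gave -0.063 (SE 0.34, unadjusted p = 0.857) and -0.045 (SE 0.34, unadjusted p = 0.896, edgeR). Leaving out G and replacing the factor with the letter-set block gave -0.22 (SE 0.09, unadjusted p = 0.0390, adjusted p = 0.644, edgeR) and -0.23 (SE 0.09, unadjusted p = 0.0286, adjusted p = 0.457). In that last fit 7.54% and 9.43% of all genes had an unadjusted p under 0.05 in these comparisons, which share the untreated cultures. Between the doses the log2 fold change of Grm7 was -0.04 (SE 0.61) in 12 cultures and -0.02 (SE 0.08) with the block and without G. Within sets A, M and P the Grm7 difference from the untreated culture was -0.24, -0.31 and -0.027 at the low dose and -0.13, -0.35 and -0.22 at the high dose. Here and in the block, M is paired with N and O, although its deviations followed H and I more closely.

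Grm8, the third member of group III, was close to the limit of detection. Its counts were 5 in A, 16 in G, 19 in M and 24 in P, then 1 in B, 12 in H, 16 in N and 28 in Q, and 4 in C, 33 in I, 23 in O and 24 in R. With 3 counts taken as the floor, the value in B cannot be told from 0. Means were 1.16 ± 0.70 CPM (SD, n = 4) without fentanyl, 0.95 ± 0.77 at the low dose and 1.09 ± 0.64 at the high dose. The log2 fold change from untreated was -0.26 (SE 0.84, 95% interval -2.12 to 1.61) at the low dose and -0.06 (SE 0.82, -1.88 to 1.76) at the high dose, and between the doses it was 0.20 (SE 0.81, -1.60 to 1.99). With the letter sets as a block in all 12 cultures the SE was 0.40 to 0.41. The low dose value of Grm8 was below the untreated value in all 4 letter sets, as for 5.28% of all genes, with differences of -0.27 to -0.034 in log2(CPM + 1).

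**Figure D2:**
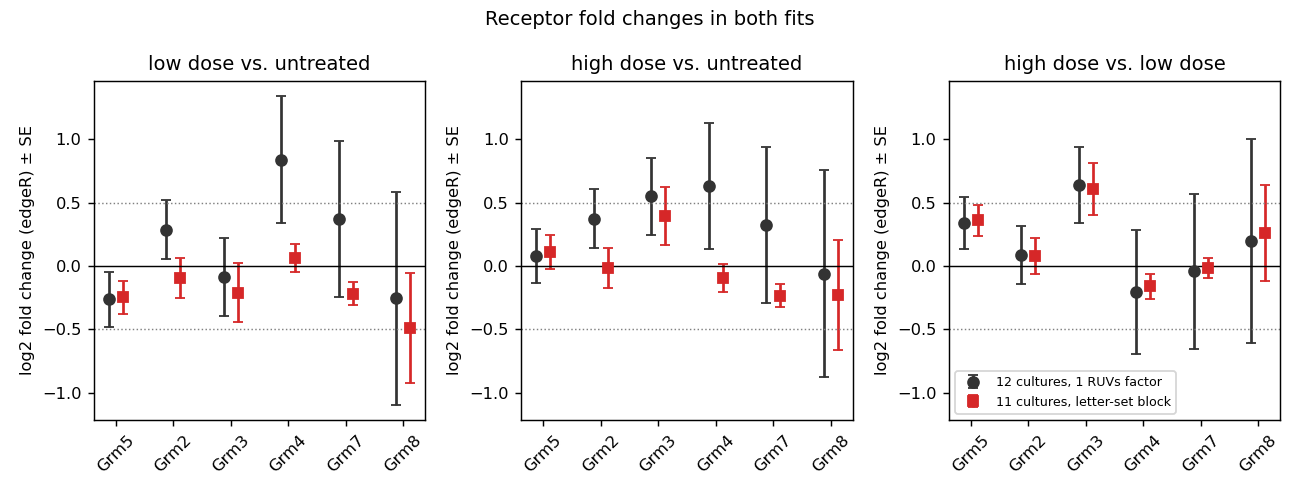
Log2 fold changes (edgeR, points, ± SE) of the 6 receptors in the 3 comparisons, with 1 factor of unwanted variation in 12 cultures (dark circles) and with the letter sets as a block in 11 cultures without G (red squares). Dotted lines mark 0.5 in either direction. Grm2, Grm4 and Grm7 shift towards or below 0 against untreated cultures in the second fit, while Grm3 is at 0.64 and 0.60 for high dose vs. low dose.

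In culture G, Grm2, Grm4 and Grm7 were as low as the neuronal markers, Grm3 and Grm5 were less low, and Grm8 was at its usual level. The 12 neuronal markers in G were at 1.74% to 24.3% (median 7.07%) of their median in the other 11 cultures. Grm4 was at 0.26 CPM there (4 counts, 95% Poisson interval 0.071 to 0.66 CPM), which is 1.01% of its median elsewhere, Grm7 was at 2.92% (12 counts) and Grm2 at 3.61% (10 counts). Each of these lay below every other culture and within the range of the neuronal markers or under it. Grm3 was at 27.3% (34 counts) and Grm5 at 42.2% (461 counts), above each of the 12 neuronal markers and still below every other culture. The 95% Poisson interval of Grm3 was 1.53 to 3.08 CPM, against a median of 8.09 CPM elsewhere. Its lower end falls under the share of the highest neuronal marker, so Grm3 cannot be told from that marker. Grm8 was at 99.4% (16 counts, 0.59 to 1.69 CPM), with 5 of the other 11 cultures below it. The 9 astrocyte markers were at a median of 206% in G (range 31.4% to 478%) and the 7 OPC markers at 131% (range 58.1% to 281%). The median gene tested was at 100.5%. The highest median of the marker lists was that of fibroblast and mural cell markers (5 genes, 1015%, range 43.3% to 7170%). Endothelial markers (3 genes) were at a median of 453%, microglial markers at 216% and oligodendrocyte markers at 37.4%. The lowest median of the marker lists was that of the neuronal markers, at 7.07%. The part of these cells in the receptor levels of G was not tested. G is 1 culture, so these shares have no replicate, and the intervals cover counting error only.

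**Figure D3:**
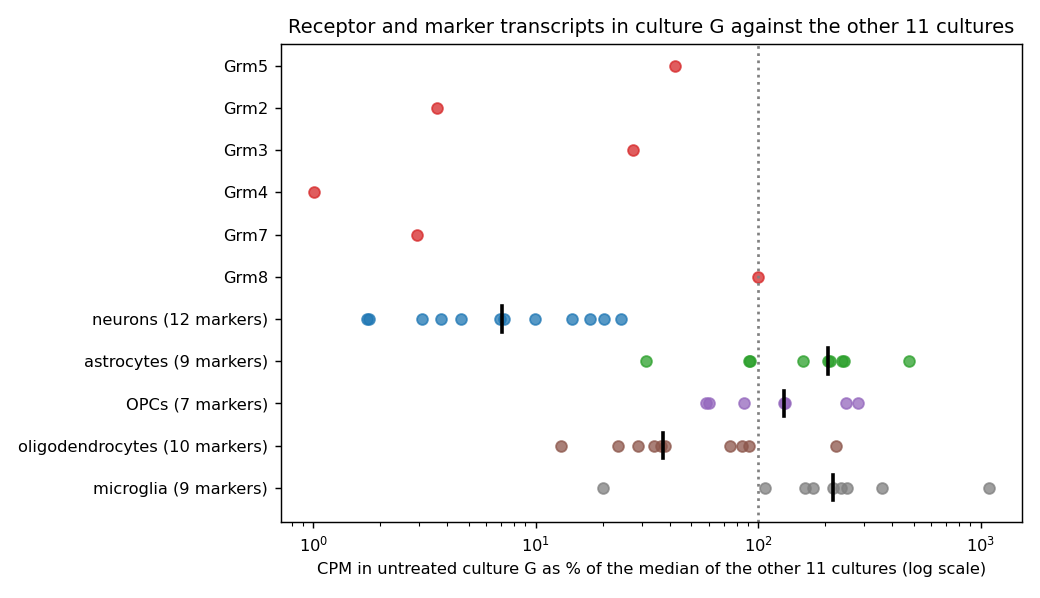
CPM in untreated culture G as a percentage of the median of the other 11 cultures (log axis; dotted line at 100%). Red points are the 6 receptors, other points are single marker genes of 5 cell types, and black bars are list medians. Grm2, Grm4 and Grm7 lie at 1.01% to 3.61%, Grm3 and Grm5 at 27.3% and 42.2%, and Grm8 at 99.4%.

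Outside set G, the letter set took a larger share of the variance than the dose for each receptor. In the 9 cultures of sets A, M and P, the set accounted for 96.0% of the variance of Grm7 in log2(CPM + 1), 87.7% for Grm8, 86.6% for Grm2, 85.0% for Grm4, 73.2% for Grm5 and 50.2% for Grm3, against a median of 76.1% over all genes tested. The condition accounted for 21.3% of the variance of Grm3 and 11.9% of that of Grm5, and for 0.52% to 2.89% of that of the other 4 receptors, with a median of 6.88% over all genes. In these 9 cultures Grm3 thus had the smallest share for the set and the largest for the condition among the 6 receptors. Over all 12 cultures Grm4 had the smallest set share, at 19.7%, and a condition share of 19.7%. Grm3 had 34.2% for the set and 28.6% for the condition there, still the largest condition share. Leaving out set G was chosen after seeing the data. These shares are descriptions with 1 culture per set and condition, and they keep M with N and O.

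Set A was compared with the other sets without G. Of all genes tested, 36% did not overlap between set A and these 8 cultures, and 2 of the 6 receptors did not, a share near that of all genes. Grm7 was at 11.5 ± 1.05 CPM (SD, n = 3) in A, B and C and at 28.3 ± 2.89 CPM in the 8 cultures of the other sets without G, 2.45-fold higher, and the groups did not overlap. Grm8 was at 0.20 ± 0.11 CPM against 1.39 ± 0.45 CPM, again without overlap, but the set A values rest on 1 to 5 counts per culture. Grm2 went the other way, at 27.6 ± 5.38 CPM in set A and 16.6 ± 4.00 CPM in the others, with overlap. The OPC score was 4.85 to 5.44 in set A against 6.44 to 7.16 in the others and the oligodendrocyte score 5.82 to 6.58 against 7.07 to 8.89, while the neuron scores overlapped, and the part of these cells in the receptor levels was not tested.

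**Figure D4:**
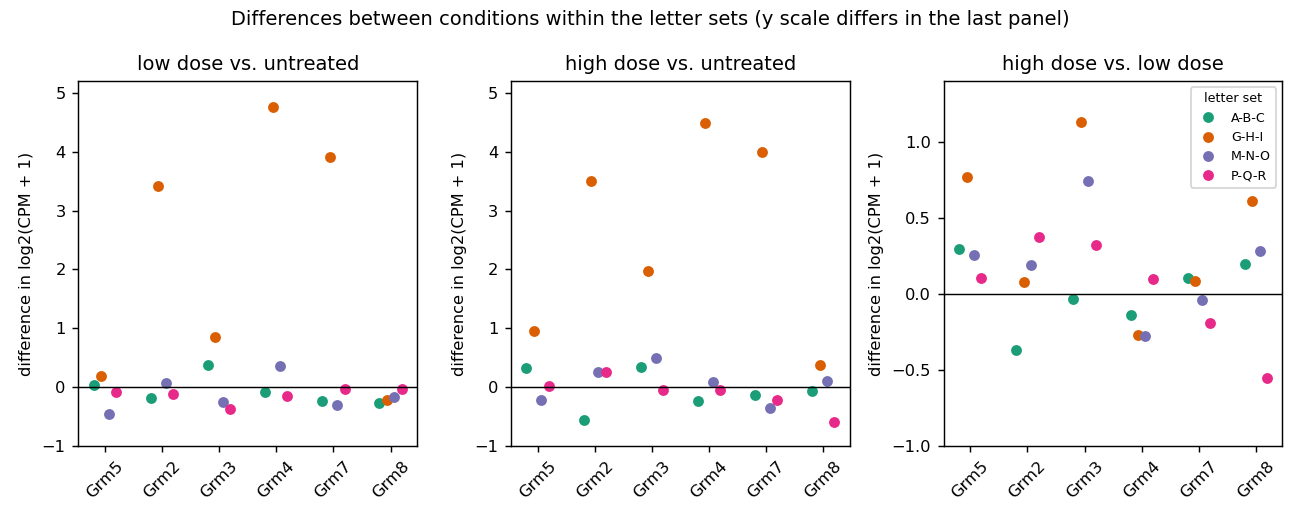
Differences in log2(CPM + 1) between conditions within each letter set for the 6 receptors, 1 point per set. Set G lies far above 0 against untreated for Grm2, Grm4 and Grm7 (3.42 to 4.76), where the other sets lie between -0.55 and 0.36. For high dose vs. low dose the 4 points of Grm5 lie above 0, as do 3 of the 4 of Grm3 (that panel has a narrower y range).

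The genes whose levels followed a receptor most closely were found with and without G. By Pearson correlation of log2(CPM + 1) over 12 cultures, the closest gene was Scamp5 for Grm2 (r = 0.995), Lmo7 for Grm3 (0.953), Ckmt1b for Grm4 (0.995), Zfp483 for Grm5 (0.969), Adarb1 for Grm7 (0.993) and Syt9 for Grm8 (0.931). Over the 11 cultures without G it was Scamp5 for Grm2 (0.967), Stx17 for Grm3 (0.935), Rsph6a for Grm4 (0.974), Adamts3 for Grm5 (0.964), Dusp7 for Grm7 (0.982) and Pcdha10 for Grm8 (0.972). Of the 3 closest genes, 2 were shared between both lists for Grm5, 1 for Grm2 and 0 for the other 4 receptors. Between the receptors themselves, Grm2 and Grm4 correlated at 0.91 over 12 cultures and 0.19 without G, while Grm7 and Grm8 went from 0.39 to 0.91. Both Grm7 and Grm8 were lower in A, B and C than in the other 8 cultures without G. In A, B and C, Grm8 had only 1 to 5 counts. The cultures share letter sets, so these correlations are not over independent samples and carry no p.

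The partners of the receptors were read from 3 lists. The first holds 23 genes of group I coupling and scaffolding (Gq proteins, phospholipases C, Homer and Shank proteins), all tested. The second holds 23 genes of group II and III coupling, release machinery and binding partners (Gi/o proteins, adenylyl cyclases, GIRK channels, presynaptic calcium channels), 22 of them tested. The third holds 16 genes of glutamate and N-acetylaspartylglutamate supply, uptake and turnover, 12 of them tested. The tested genes gave 0 calls in every comparison, with the factor of unwanted variation and with the block without G (edgeR). With the factor, 2 tests in the lists had an unadjusted p under 0.05, both of Slc17a6. With the block and without G, the lists had, in the same order, 3, 3 and 0 such tests for low dose vs. untreated, 0, 4 and 4 for high dose vs. untreated, and 5, 8 and 2 between the doses, where 7.54%, 9.43% and 13.6% of all genes passed. The median log2 fold change for high dose vs. low dose was 0.07 in the first list (19 of 23 above 0), 0.03 in the second (13 of 22) and -0.10 in the third (2 of 12), where the median of all genes tested was -0.01.

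Slc17a6, the vesicular glutamate transporter VGLUT2 that loads the receptors' ligand into vesicles, differed between the doses without overlap. It was at 20.2 CPM in B, 26.6 in H, 22.8 in N and 23.5 in Q at the low dose, and at 14.7 in C, 11.1 in I, 9.09 in O and 9.63 in R at the high dose. The untreated cultures spanned both, at 19.4 CPM in A, 1.43 in G, 10.2 in M and 23.1 in P. For low dose vs. untreated its log2 fold change was 0.84 (SE 0.27, unadjusted p = 0.0108, adjusted p = 1.0, edgeR), and 0.43 (SE 0.23) with the block and without G. For high dose vs. untreated it was -0.25 (SE 0.27), and -0.66 (adjusted p = 0.395, edgeR) with the block and without G. The log2 fold change for high dose vs. low dose was -1.09 (SE 0.27, unadjusted p = 0.00216, adjusted p = 1.0, edgeR), and its within-set differences were -0.43, -1.19, -1.24 and -1.21 in sets A, G, M and P. With the block and without G the adjusted p was 0.0876 (edgeR). The gene is named because it has the smallest p of its list in this comparison, so these values describe that choice. Of all genes tested, 1.19% did not overlap between the doses and 11.1% were lower in all 4 sets. Slc17a7, the VGLUT1 transporter that predominates in cortical neurons, went the other way in each set, with differences of 0.19, 0.18, 0.41 and 0.46 and a log2 fold change of 0.31 (SE 0.37). Of all genes tested, 11.7% were higher in all 4 sets.

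Among the Gi/o partners, Adcy8, a calcium-stimulated adenylyl cyclase, was at 22.6 ± 5.11 CPM (SD, n = 4) in low dose cultures and 14.8 ± 1.53 CPM in high dose cultures, lower in each set (log2 fold change -0.63, SE 0.39). Kcnj9, a subunit of the GIRK potassium channels that Gi/o-coupled receptors open, was at 43.1 ± 8.47 CPM at the low dose and 54.9 ± 5.63 CPM at the high dose, higher in each set, with a log2 fold change of 0.37 (SE 0.20). The adjusted p was 1.0 for each (edgeR), and both were named for the smallest p of their list in this comparison with the factor. Of all genes tested, 11.1% were lower and 11.7% higher in all 4 sets between the doses. With the block and without G, Rgs4, which this rule did not name, had the smallest p of that list (adjusted p = 0.0859, edgeR). For group I, Ptk2b, a calcium-activated tyrosine kinase, had the smallest p for high dose vs. untreated in the fit with the factor. Its means in these conditions were 188 ± 51.0 CPM and 117 ± 69.2 CPM (log2 fold change 0.63, SE 0.37), and culture G had 35.1 CPM. With the block and without G the value for Ptk2b was 0.26 (SE 0.14). Gnaq, the Gq subunit through which Grm5 signals, was at 48.6 ± 11.5 CPM at the low dose, 57.0 ± 2.62 at the high dose and 56.7 ± 9.97 in untreated cultures, which overlapped. Grasp, a scaffold of group I receptors named by the same rule, was lower at the high dose in each set, as were 11.1% of all genes. Its differences from the low dose were -0.70 to -0.19, with a log2 fold change of -0.45 (SE 0.33). The log2 fold change of Homer2, another scaffold, was -0.41 (SE 0.26) for low dose vs. untreated. The G-protein subunit gene Gng3 gave 0.46 (SE 0.23) for low dose vs. untreated and 0.06 (SE 0.08) with the block and without G. For high dose vs. untreated, the scaffold gene Grip1 gave -0.56 (SE 0.28), or -0.31 (SE 0.14) with the block and without G, and Folh1, whose enzyme cleaves the group II agonist N-acetylaspartylglutamate, gave -0.78 (SE 0.46), with adjusted p of 1.0 for each (edgeR).

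**Figure D5:**
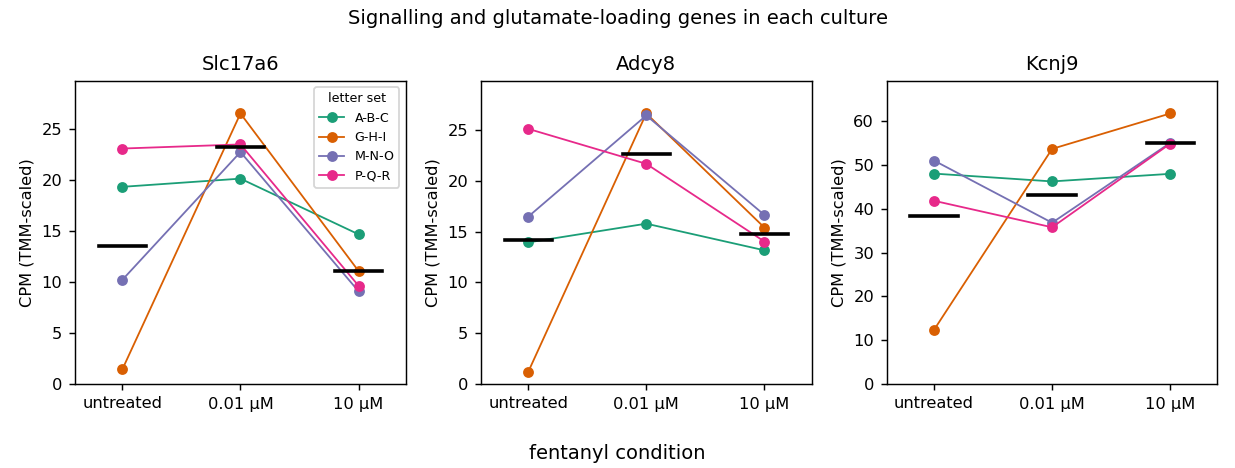
CPM (TMM-scaled, linear axis from 0) of Slc17a6, Adcy8 and Kcnj9 in the 12 cultures by fentanyl condition, with lines joining letter sets and black bars for means of 4 cultures. They had the smallest p for high dose vs. low dose in the third and second lists, in the fit with the factor. The 4 high dose cultures of Slc17a6 (9.09 to 14.7 CPM) lie below the 4 low dose cultures (20.2 to 26.6 CPM).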

How the data were processed

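Poly(A)-enriched RNA of 12 cultures was sequenced. Per the labels and the study's methods, the authors aligned reads to rn6 with STAR and counted them with featureCounts, and the deposited values are raw whole-number counts. The annotation and strand setting are not given in the sources used here. With edgeR 4.0.16 in R 4.3.3 (limma 3.58.1; DESeq2 1.42.0 as an alternative), counts were filtered by filterByExpr, TMM-scaled and fitted by quasi-likelihood with the 3 conditions and 1 RUVs factor, whose formula was written anew since the study names RUVseq without settings. Benjamini-Hochberg adjustment ran over the genes kept in each fit. These were 12271 with 1 RUVs factor in 12 cultures and 12337 with the block and without G. Single values were compared by exact permutation (70 arrangements, 18 comparisons). Scripts were tested on simulated data. Members, lists and rules were chosen with earlier results of these data known. The rule named the receptors and the 2 list genes with the smallest p per list and comparison in the fit with 1 RUVs factor. It also named the 3 genes most correlated with each receptor (the closest is printed). Of these, 1 list gene is not reported here. All tests were two-sided. Grk2 and Grk3 were matched through older symbols, and 4 listed genes were not matched. Levels of different receptors are not compared, because transcript lengths were not used here. Replicate cultures differed beyond sampling noise in every pair (chi-square per gene 18.4 or more). Other settings tried were further factors, a block by letter set, other tests, size factors and filters, and leaving out each culture.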

Additional observations from a re-analysis of the deposited data

Results flagged for a closer look

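Of 18 groups of 4 cultures (6 receptors in 3 conditions), 3 held a culture whose gap to the nearest of the others, as a share of the group's range, exceeded Dixon's 95% critical value, which chance gives in about 5% of groups. Grm4 in untreated culture G was at 0.33 on the log2(CPM + 1) scale, with the others at 4.28 to 4.96. Grm7 was at 3.53 in low dose culture B, with the others at 4.74 to 4.93, and at 3.64 in high dose culture C, with the others at 4.74 to 4.82. B and C share a letter set with A, where Grm7 was at 12.6 CPM and G lay lower still.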

How the results depend on the processing

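Each of the 24 alternative fits called 0 of the receptors it tested (6, or 4 with at least 10 counts in every culture). Since deviations of G did not follow H and I, the replicate block is given with and without G. Deviations of M followed H and I more closely than N and O, yet the block keeps M with N and O. The count of all genes called, 0 in each comparison, became 1 with 2 RUVs factors for both comparisons of the high dose, 39 against untreated and 113 against low dose with 4 factors, 15 and 14 with the replicate block without G, 3 and 1 with DESeq2, and 2 against untreated with a likelihood ratio test.

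Several fold changes changed sign with the setting. Grm3 for low dose vs. untreated was 0.015 without a factor, 0.053 with 1 RUVr factor and 0.12 with the replicate block in 12 cultures. Grm8 for high dose vs. untreated was 0.41 with 2 RUVs factors. Grm7 was -0.028 for low dose vs. untreated, -0.016 for high dose vs. untreated and 0.012 for high dose vs. low dose with 4 factors, and the last was 0.0036 with the replicate block and 0.0049 in the 8 cultures compared. With the replicate block without G, Grm2 was -0.095 and Grm7 -0.22 for low dose vs. untreated, and Grm2 was -0.014, Grm4 -0.093 and Grm7 -0.23 for high dose vs. untreated. Differences of mean log2(CPM + 1) without set G (chosen after seeing the data) were -0.077 for Grm2, -0.083 for Grm3 and -0.19 for Grm7 at low dose vs. untreated, -0.012 for Grm2, -0.066 for Grm4 and -0.24 for Grm7 at high dose vs. untreated, and -0.025 for Grm8 between the doses. The fit with the replicate block without G changes both the model and the cultures. The cause of these changes was not tested.

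Leaving out 1 culture at a time, fold changes that changed sign ranged as follows: Grm2 -0.18 to 1.05, Grm3 -0.22 to 0.26, Grm7 -0.13 to 1.04 and Grm8 -0.80 to 0.48 for low dose vs. untreated, Grm2 -0.13 to 1.10, Grm4 -0.042 to 1.11, Grm5 -0.045 to 0.22, Grm7 -0.045 to 1.01 and Grm8 -0.50 to 0.70 for high dose vs. untreated, Grm4 -0.44 to 0.23, Grm7 -0.33 to 0.37 and Grm8 -0.16 to 0.81 for high dose vs. low dose. Differences of mean log2(CPM + 1) that changed sign or side of the threshold ranged as follows: Grm2 -0.11 to 1.34, Grm3 -0.22 to 0.42, Grm5 -0.39 to 0.13, Grm7 -0.12 to 1.32 and Grm8 -0.40 to 0.080 for low dose vs. untreated, Grm2 -0.044 to 1.4, Grm5 -0.031 to 0.41, Grm7 -0.13 to 1.31 and Grm8 -0.27 to 0.19 for high dose vs. untreated, Grm2 -0.11 to 0.28, Grm3 0.40 to 0.69, Grm7 -0.34 to 0.28 and Grm8 -0.12 to 0.37 for high dose vs. low dose.

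Of the 3 genes most like each receptor, leaving out G kept 1 for Grm2 and 0 each for Grm3, Grm4, Grm7 and Grm8. A minimum of 10 counts in every culture removed Grm4 and Grm8, which have no value there, and the level per length and its alternative were not run. Grm8 had the fewest counts, at 1 to 33 per culture.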
